A study of Mus musculus with 2 samples.

Results

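The genes described here are 10 components of the Nodal, Lefty and activin pathway, taken from 19938 genes measured in mouse embryonic stem cells. They are Nodal, Tdgf1, Acvr1b, Acvr2b, Smad2, Smad3, Foxh1, Lefty1, Lefty2 and Skil, chosen by symbol from the platform annotation. Each is read by 1 probeset that the annotation assigns to that gene alone. The cells were i-OSKM-ESC of strain 129, made from the KH2 line, in which doxycycline switches on transgenes for Oct4, Klf4, c-Myc and Sox2, the last with an epitope tag. A culture that received doxycycline (4 µg/mL) for 24 hours was set against a culture refed medium without the drug, each on its own array. Both cultures carried the transgenes and grew on gelatin. With 1 array per group there is no replicate error and no test, and every difference below is a description of these 2 arrays. KH2 cells without the transgenes but with the drug were not analysed here, so an effect of doxycycline and an effect of the factors cannot be told apart.

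Nodal is a secreted ligand of the TGF-beta superfamily. It binds activin receptors made of a type I and a type II serine-threonine kinase, and it needs a co-receptor of the EGF-CFC family, such as the Tdgf1 product Cripto. The receptors phosphorylate Smad2 and Smad3, which enter the nucleus with Smad4 and act on DNA through partners such as Foxh1. Lefty proteins block Nodal outside the cell and are themselves products of the pathway, as Nodal is. In embryonic stem cells the pathway is active at a low level, and in the embryo it patterns the epiblast, the primitive streak and the left-right axis.

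Sequences upstream of the transcription start are shown for Nodal and Tdgf1, the ligand and co-receptor genes that were both lower with doxycycline, and for Acvr2b, the member that differed least. RefSeq promoters of build GRCm38.p6 were found for 5 of the 10 members, the others being those of Acvr1b and Smad3. Each line is the 250 bases before the start, 5′ to 3′ on the strand of the gene. Capitals mark matches to 6 motifs searched on both strands, which were those of FOXH1 (TGTNNATT), SMAD (CAGAC), the POU octamer (ATGCAAAT), SOX (CATTGT), KLF (GGGNGTGG) and the MYC E-box (CACGTG).
Nodal (chr10:61417722-61417971, plus strand): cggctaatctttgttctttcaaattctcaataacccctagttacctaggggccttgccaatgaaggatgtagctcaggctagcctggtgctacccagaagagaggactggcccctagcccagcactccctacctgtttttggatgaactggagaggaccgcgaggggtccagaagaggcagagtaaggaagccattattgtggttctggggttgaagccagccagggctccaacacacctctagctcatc
Tdgf1 (chr9:110946159-110946408, minus strand): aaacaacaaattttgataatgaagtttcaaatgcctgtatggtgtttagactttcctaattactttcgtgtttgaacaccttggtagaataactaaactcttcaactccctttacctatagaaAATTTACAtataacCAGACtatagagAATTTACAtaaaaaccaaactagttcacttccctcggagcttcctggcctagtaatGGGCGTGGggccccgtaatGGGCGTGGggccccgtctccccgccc
Acvr2b (chr9:119401928-119402177, plus strand): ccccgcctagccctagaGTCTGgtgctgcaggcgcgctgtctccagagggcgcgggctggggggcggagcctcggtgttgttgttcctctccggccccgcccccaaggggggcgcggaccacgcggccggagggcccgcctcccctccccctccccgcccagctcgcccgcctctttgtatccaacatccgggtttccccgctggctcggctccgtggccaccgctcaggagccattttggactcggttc

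The Tdgf1 sequence held 5 matches, none overlapping another. The KLF letters GGGCGTGG occurred at 45 to 38 and again at 26 to 19 bases before the start. The reverse FOXH1 letters, AATTTACA, lay at 127 to 120 and at 101 to 94 bases before the start, with 1 SMAD match between them at 113 to 109. The KLF motif was present in 15.9% of the 32851 RefSeq promoters of this length, the FOXH1 motif in 10.9% and the SMAD motif in 42.2%. Acvr2b had 1 SMAD match, on the reverse strand at 233 to 229 bases before the start, and Nodal and Smad3 had 0 matches. Acvr1b had 1 E-box, at 54 to 49 bases before the start, a motif found in 6.02% of promoters. The octamer (1.6% of promoters) and the SOX motif (10.7%) were in none of the 5 windows. A match is a description of letters, with N standing for any base, and was not tested as a binding site. Its absence says only that those letters are not in this window.

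Among the 10 genes, Lefty2 was higher with doxycycline, Tdgf1, Nodal and Lefty1 were lower, Foxh1 was higher by less, and the receptors, Smad2, Smad3 and Skil lay within 0.2 on the log2 scale. A gene was called when at least 1 of its values was at or above the median of the whole table (log2 6.48) and the arrays differed at least 2-fold. By that rule 1 of the 10 members was called higher, against 0.92% of the 11191 genes passing the filter, and 0 were called lower, against 0.768%. The median log2 difference of the 10, plus minus no doxycycline, was -0.11. Over all 19938 genes it was 0.0083, and over the 11191 passing the filter it was -0.03. Differences were below 0 for 7 of the 10 and for 55.5% of genes passing the filter, and all 10 passed it. Over all genes, filtered or not, the share was 48.3%. At 1.5-fold, 1 member was higher and 2 were lower, against 3.24% and 3.8% of genes passing the filter. Differences of at least 0.5 on the log2 scale were seen in 5 members and in 10.3% of genes passing the filter. With 32 added to the linear values, 3 members remained at or beyond 0.5, since Lefty1 had -0.45 and Foxh1 0.42. Differences under 0.2 were those of 5 members and of 56.9% of genes passing the filter, so the members within that range were near the share of all genes.

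**Figure D1:**
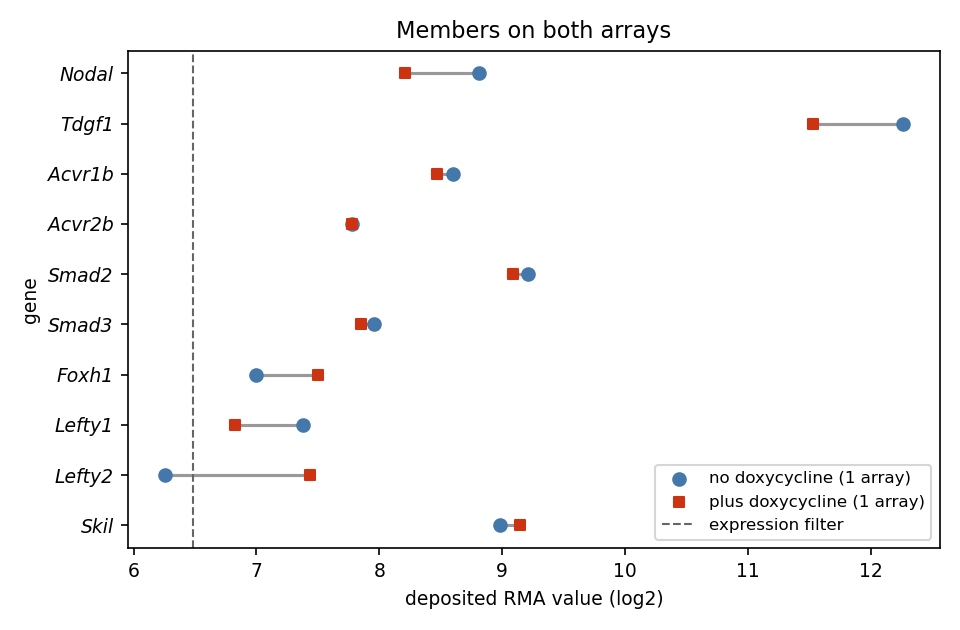
Deposited RMA values (log2) of the 10 members, 1 point per array: circles for the array without doxycycline, squares for the array labelled plus doxycycline, and a dashed line at the expression filter of 6.48. Lefty2 crosses the filter from 6.26 to 7.44, whereas both points of Acvr2b lie at 7.78; positions of different genes come from different probes and are not comparable.

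Every direction given here depends on the arrays being labelled correctly. Of the 4 induced factors, Sox2 was lower in the array labelled plus doxycycline (10.88 against 11.89), while Pou5f1 (12.46 against 12.05), Klf4 (9.34 against 8.91) and Myc (10.42 against 10.07) were higher. Which of these probes read the transgenes is not stated in any source used here, so the factors do not check the labels. All 12 embryonic stem cell markers examined lay above the filter on both arrays, at 9.56 to 13.01 without and 9.08 to 12.49 with doxycycline. Of these 12, which include Tdgf1, 10 had a negative difference, with a median of -0.44. Fibroblast markers had a median difference of 0.25 over 9 genes, 7 of them positive and 5 passing the filter. Their summed linear signal, as log2, was 9.48 without and 9.71 with doxycycline. Col1a1 (7.16 without and 7.61 with doxycycline), Col1a2 (6.66 and 7.16) and Thy1 (7.22 and 7.49) lay above the filter on both arrays and were higher with doxycycline. Col3a1 (6.56 and 6.49) and Pdgfrb (6.63 and 6.38), which also passed the filter, were lower with doxycycline. Pdgfrb passed only through the array without doxycycline. Dcn (4.54 and 4.81), Lum (3.38 and 3.63) and Postn (4.55 and 4.80) lay below it on both. Mesendoderm markers had a median of -0.02 over 8 genes, 4 of them passing the filter. For primitive endoderm markers it was -0.06 over 10 genes, 9 of them passing. The part of other cell types in the results was not tested, and in such bulk RNA fewer cells of a type and less RNA per cell cannot be told apart.

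The ligand gene Nodal had a log2 value of 8.81 without doxycycline and 8.20 in the array labelled plus doxycycline. The culture with doxycycline was thus the lower, with a log2 difference of -0.60, or 1.52-fold. Of the 1388 genes passing the filter whose mean level lay within 0.25 of that of Nodal, 61 (4.39%) had a difference as low or lower, and the median of those genes was -0.07. Their robust SD was 0.24, a spread across genes in which noise and biological differences are mixed. The difference of Nodal was under 1.5-fold after quantile normalization (-0.55), with 32 added to the linear values (-0.56) and after removal of the trend with expression (-0.53).

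Tdgf1 encodes Cripto, the co-receptor that lets Nodal engage its receptors, and it is also used as a marker of undifferentiated cells. Its value was 12.26 without doxycycline and 11.53 with it. This was the largest decrease among the 10 members, a log2 difference of -0.73 or 1.66-fold. None of the 107 genes whose mean level lay within 0.25 of that of Tdgf1 was as much lower (0 of 107), and the robust SD of those genes was 0.12. In a window of 0.5, chosen after the values were seen, 3 of 232 genes were as low or lower, and these were H2ac1 (-1.05), Jarid2 (-0.93) and Peg10 (-0.85). Over all 11191 genes passing the filter, 237 (2.12%), Tdgf1 included, had a difference at least as low. Of the 12 embryonic stem cell markers, Tdgf1 included, 10 were lower and 2 higher, with a median of -0.44. Sox2 (-1.01) and Utf1 (-0.95) were lower by more than Tdgf1, at mean levels just outside both windows. The gene order of GRCm38.p6 also holds the pseudogenes Tdgf1-ps1 and Tdgf1-ps2, and it was not tested whether the Tdgf1 probes read them.

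**Figure D2:**
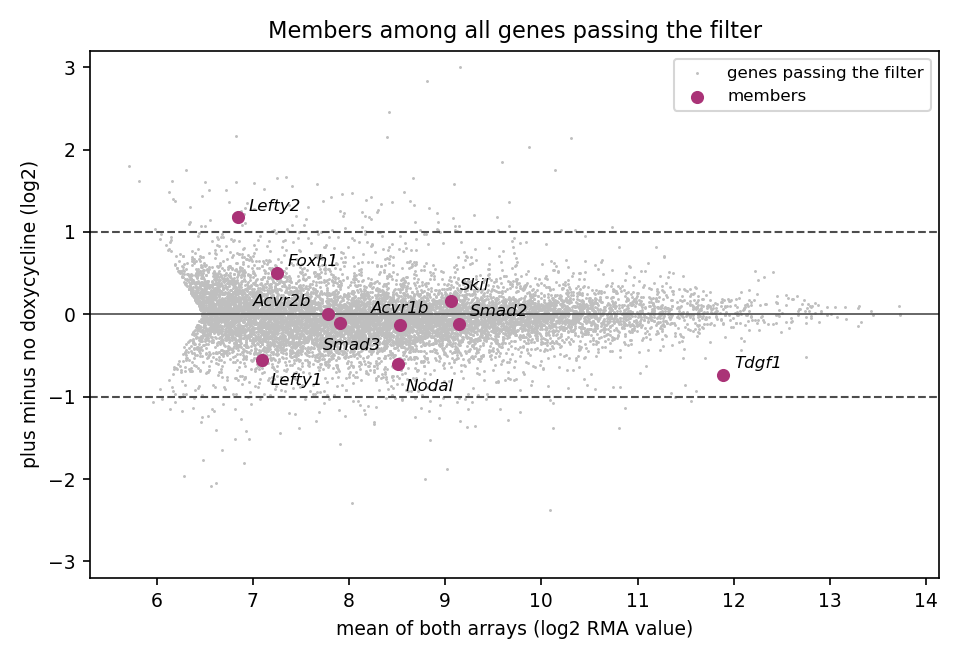
Difference of log2 values (plus minus no doxycycline) against the mean of both arrays, with 1 grey dot per gene passing the filter, larger labelled points for the 10 members and dashed lines at 2-fold. Lefty2 (1.18) lies above the upper line, and Tdgf1 (-0.73) lies below the narrow band of genes near its level.

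The receptor genes were nearly alike on both arrays. Acvr1b encodes the type I receptor ALK4, which phosphorylates Smad2 and Smad3, and its value was 8.60 without and 8.47 with doxycycline, a log2 difference of -0.13. Acvr2b, a type II receptor gene, had 7.78 on both arrays, with a log2 difference of -0.00086. Among genes near their level, 39.2% had a difference as low as that of Acvr1b and 64.7% one as low as that of Acvr2b. Acvr2b differed in sign under other scalings, with 0.07 after removal of the trend with expression and 0.05 after quantile normalization.

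The transcription factors that carry the signal split between the Smads and their partner. Smad2 had 9.21 without and 9.09 with doxycycline, a log2 difference of -0.12, and Smad3 had 7.96 and 7.85, a difference of -0.11. Of genes near the level of Smad2, 38.6% were as low or lower, and of those near Smad3, 47.5%. Foxh1, the forkhead partner that brings Smad2 and Smad3 complexes to their sites, was 6.997 without and 7.50 with doxycycline. It was higher by 0.51 on the log2 scale, or 1.42-fold, and 68 of the 1486 genes near its level (4.58%) were as high or higher. The arrays measure RNA only and say nothing of phosphorylation, by which Smad2 and Smad3 are controlled.

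The inhibitor genes Lefty1 and Lefty2 differed in opposite directions. Lefty1 had 7.38 without and 6.82 in the array labelled plus doxycycline, a log2 difference of -0.55 or 1.47-fold. Among 1501 genes near its level, 67 (4.46%) were as low or lower. Lefty2 had 6.26 without and 7.44 with doxycycline, a log2 difference of 1.18 or 2.26-fold, and 11 of 1642 genes near its level (0.670%) were as high or higher. Lefty2 passed the filter only through the array in which it was high, and its value without doxycycline cannot be told from background, since the table gives no detection call. When 32 was added to the linear values, its log2 difference was 0.92, under 2-fold. The gap between the differences of Lefty2 and Lefty1, which rests on that dim value, was 1.73 as deposited and 1.37 with 32 added. Lefty1 and Lefty2 are close copies, and whether the probes of one also read the other was not tested, so both values are uncertain.

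The Lefty genes are neighbours, and the measured genes around them were examined after the values of Lefty2 were seen. In the gene order of GRCm38.p6, no gene with a probeset of its own in the table lies between them. Of the 8 nearest measured genes, 4 on each side, 6 passed the filter and 1, Ephx1, was called higher. The share with that call among the 11191 filtered genes was 0.92%, and 6 genes are too few to compare with it. Ephx1, which encodes microsomal epoxide hydrolase, was at 7.52 without and 8.76 with doxycycline, or 2.36-fold higher. Tmem63a, which lies between Lefty1 and Ephx1, differed by 0.20. The lowest difference among the 8 was that of Sde2, on the other side of Lefty2, at -0.19. Whether genes at this locus differed together was not tested, and 1 called neighbour on 2 arrays cannot show it.

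Skil encodes SnoN, a repressor that binds Smad2 and Smad3 and is induced by the pathway as a brake. Its value was 8.98 without and 9.14 with doxycycline, a log2 difference of 0.16 or 1.12-fold. Of 1126 genes near its level, 16.5% were as high or higher.

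The wider pathway was described with 59 genes listed by role, of which 56 had a value and 44 passed the filter. The counts include the 10 members. Of the 44, 1 was called higher (Lefty2) and 1 lower (Smad7), beside 0.92% and 0.768% called over all genes that passed. The median log2 difference of the 56 was 0.0056, with 28 differences above 0 and 28 below. Of the 12 ligand genes measured, 6 passed the filter and could be called, and 0 of these were, which at the shares called over all genes is no result about ligands. Gdf3, whose product also acts through Cripto, was 9.18 without and 8.62 with doxycycline (a log2 difference of -0.56), near the difference of Nodal, and Tgfb1 was 7.61 and 8.03 (0.42). The convertase genes Pcsk6 (9.26 and 9.30) and Furin (7.991 and 8.003), whose products cleave the Nodal precursor, differed by 0.04 and 0.01.

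Of the 10 receptor and co-receptor genes, 8 passed the filter and 0 were called. After Tdgf1, the differences furthest from 0 among those passing the filter were 0.28 for Tgfbr3, a TGF-beta co-receptor, and -0.16 for Tgfbr1, a type I receptor. Tgfbr3 (6.44 without and 6.72 with doxycycline) passed the filter only through the array in which it was high. Among the 7 antagonists outside the cell or in its membrane, 5 passed the filter and Lefty2 was called higher, beside the 0.92% above. Bambi, a pseudoreceptor, had 7.84 without and 7.33 with doxycycline, a log2 difference of -0.51. Of the 8 Smads and partners, all of which passed, 0 were called, which at those shares is no result about them either. Trim33, which binds Smad2 and Smad3, had -0.37, and the T-box factor gene Eomes had -0.24. Eomes (6.52 without and 6.28 with doxycycline) also passed only through the array in which it was high.

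Among the 11 genes listed as inhibitors inside the cell, Smad7 was called lower, beside 0.768% of all genes passing the filter. Smad7 blocks the type I receptors of the Nodal, activin and BMP branches, and its value was 10.30 without and 9.01 with doxycycline, a log2 difference of -1.29 or 2.44-fold. Smurf1, a ubiquitin ligase that works with Smad7, was 8.51 and 9.05 (0.54), and Rnf111 was 9.49 and 9.17 (-0.32). Rnf111 is on this list, but its product is a ligase that degrades the inhibitors SnoN and Smad7. Of the 18 genes listed as responding to Nodal or activin, 16 had a value and 14 passed the filter. Of these 14, 1 was called higher and 1 lower, again Lefty2 and Smad7, beside 0.92% and 0.768% of all genes passing the filter. Over the 16 with a value, 8 differences were above 0 and 8 below, with a median of -0.02. Lefty1, Lefty2, Nodal, Skil and Smad7, all known to respond to the pathway, had differences in both directions. The positive ones were those of Skil, at 0.16, and of Lefty2, whose value without doxycycline cannot be told from background.

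**Figure D3:**
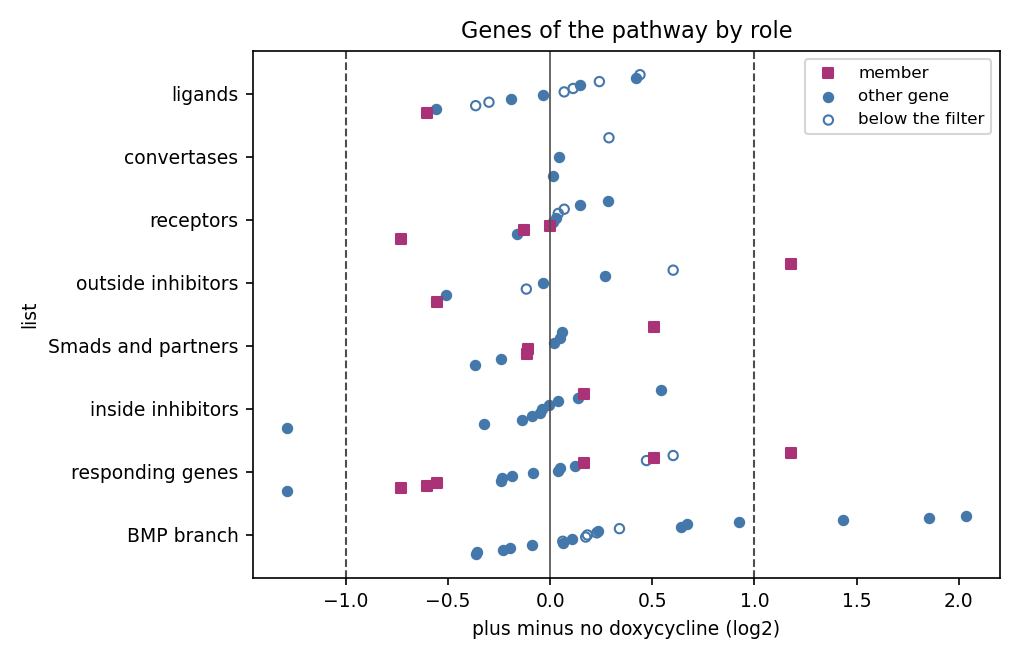
Difference of log2 values (plus minus no doxycycline) of each measured gene, by role list; squares are members, filled circles other genes, open circles genes below the filter and dashed lines 2-fold. Height within a list only separates the points, and a gene in more than 1 list appears in each. Lefty2 (1.18) and Smad7 (-1.29) are the pathway genes beyond the lines, and in the BMP branch Id1, Id2 and Id3 are beyond the upper one.

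The BMP branch uses other receptors and Smads but shares Smad4 and Smad7 with the Nodal branch. Of its 19 measured genes, 14 passed the filter, 3 of them were called higher and 0 lower, beside 0.92% and 0.768% of all genes passing the filter. The median log2 difference of the 19 was 0.18, with 14 differences above 0 and 5 below. The called genes were Id2 (8.85 without and 10.89 with doxycycline), Id1 (8.66 and 10.52) and Id3 (5.75 and 7.19), whose products hold basic helix-loop-helix factors off DNA. Like Lefty2, Id3 passed the filter only through the array in which it was high. The ligand, receptor and Smad genes of the BMP branch that passed the filter were not called at 2-fold. Among its ligand genes that passed, Bmp4 was 9.26 without and 10.18 with doxycycline, a log2 difference of 0.93 or 1.90-fold. Bmp8b was 6.58 and 7.22 (0.64), and Bmp7 7.70 and 7.81 (0.10). At 1.5-fold, 6 genes of the branch were higher and 0 lower, against 3.24% and 3.8% of genes passing the filter. Of these, Id4 (6.39 and 7.06), like Id3, passed only through the array in which it was high. The BMP list was chosen with earlier results of these data known, so its counts are a description only. With 1 array per group, whether the branches differed could not be tested.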

How the data were processed

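For each of 35556 probesets, 1 log2 value per array was deposited. The authors made these values with Affymetrix Expression Console and RMA, per the submitters' processing notes; their versions and the build are not stated in those sources. RMA gives the arrays like distributions, which would hide a shift common to most transcripts, and it compresses the fold changes of dim ones. Values ran from 2.49 to 14.19, and the array medians were 6.49 with and 6.47 without doxycycline.

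Of the probesets, 21789 had exactly 1 gene in the platform annotation, 1621 several and 12146 were not listed. A gene's value was the mean of its probesets of 1 gene, which gave 19938 genes, and all 10 members matched a gene ID in the GRCm38.p6 table. Differences are plus minus no doxycycline. With 1 array per group, a call is a fold and not a test. "Genes near a level" pass the filter and have a mean of both arrays within 0.25 of it, the gene itself left out. The named genes are the 10 members, the 4 induced factors and, per role list and for the BMP branch, the called genes, filled up to 3 with those furthest from 0 that pass the filter. The cell type markers, the neighbours of the Lefty genes and the genes near the level of Tdgf1 that are named were chosen after their values were seen. So were the named BMP ligand genes and Id4. The members and lists were chosen with earlier results of these data known. The steps were tested on simulated data. Alternatives were other filters, loess, quantile normalization, an offset of 32, the brightest probeset, probesets one by one and 1.5-fold. Tables were handled with pandas 2.3.3 and NumPy 2.4.6 in Python 3.11.15, loess was fitted with statsmodels 0.14.6, and plots were drawn with matplotlib 3.10.9.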

Additional observations from a re-analysis of the deposited data

How the results depend on the processing

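No paired analysis was possible because each group has 1 array, and leaving out an array leaves no comparison. Each member has 1 probeset, so the choice of probeset cannot move it. Over loess, quantile normalization and the offset of 32, 29 of 30 values of the members' differences moved by less than 0.167, the SD between probesets of the same gene, from 492 genes with 2 of them. The exception was Lefty2 with the offset (0.92), and of the 10 members only Acvr2b changed sign. The median of the members lay between -0.11 and -0.04, and that of the pathway genes, 0.0056 as reported, was -0.02 after loess. A filter at the 75th percentile called 57 genes higher and 52 lower, and the offset 66 and 49, beside 103 and 86. Both called 0 members and 0 pathway genes higher, since Lefty2 was no longer called. At 1.5-fold, 363 genes were higher and 425 lower, with 2 members (Nodal and Tdgf1) and 3 pathway genes (with Smad7) lower. The members at least 0.5 from 0 numbered 3 with the offset and 5 otherwise, a count made under these settings after the data were seen. The window of 0.5 around Tdgf1 held 3 genes as low. No depth is defined for arrays, and their number limits the precision.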
